A study of Mus musculus with 18 samples.

Results

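The comparison was between 2 mouse embryonic stem cell lines, the Oct4 line and ZHBTc4, from which it was derived. Its arrays were taken by sample title: those titled Oct4 without the VP2 suffix and those titled ZHBTc4, which are 12 of the 18 arrays of the series, 6 from each line. Each Oct4 group was set against the ZHBTc4 group in the same LIF state at the same time, which gave 3 matched comparisons of 2 arrays against 2. The other 6 arrays, of the Oct4VP2 line, entered only the shared estimate of the spread and the filter that chose the probes tested. Each array carried 60-base probes and was hybridised with RNA of the culture in Cy3 and with a common mouse reference RNA, pooled from cell lines, in Cy5, so a level below is a log2 ratio of sample over reference.

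ZHBTc4 is a 129/Ola line in which oct4 is transcribed from a transgene that tetracycline shuts off, and its label for genetic modification is a knock-in. The Oct4 line is ZHBTc4 that was electroporated with a further oct4 construct, which integrated at random, and selected with puromycin. The Oct4 cultures taken 48 h and 120 h after LIF withdrawal were plated with tetracycline and 2 μg/ml puromycin; tetracycline shuts off the regulated transgene and leaves the added construct. The labels of the Oct4 cultures with LIF mention neither drug, call the modification a knock-in, and name 2 differently numbered Oct4 lines for the 2 arrays. No ZHBTc4 label mentions tetracycline or puromycin. Without LIF, line, construct and drug treatment therefore cannot be told apart. With LIF the labels give no drug to either line, and line and construct cannot be told apart. All cultures were plated at 200000 cells per flask. The cultures with LIF were collected 24 h after plating. The series describes the 2 arrays of a group as independent clones, and the p-values measure the spread between such pairs.

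Oct4, the product of Pou5f1, is a POU-domain transcription factor that holds embryonic stem cells in the pluripotent state. Its amount matters: cells that lose it turn towards trophectoderm, and an excess turns them towards endoderm and mesoderm. LIF is the cytokine that sustains self-renewal of mouse embryonic stem cells through Stat3, and its withdrawal starts differentiation. The comparison asks how the lines differ while LIF is present and after it has gone. It does not isolate the source of Oct4, since line, construct and, without LIF, drugs cannot be told apart.

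The deposited files do not pair probes with genes, so the results are given for probes. Pou5f1, the introduced constructs and the markers of embryonic stem cells and of differentiated lineages were not analysed here, and the labelled cell type was not checked against markers. A few probes could be placed near gene starts of the mouse genome by their sequence and are described after the comparisons. The probes the comparisons turn on are shown first, so that each can be looked up: of each 60-base probe a run of 30 bases, 5′ to 3′ as deposited. Capitals mark AATAAA, the usual polyadenylation signal, where the shown run holds it.
Z00004852-1, lower in the Oct4 line in all 3 conditions: caagaattcagcAATAAAgaggtggattcc
Z00074877-1, lower in the Oct4 line in all 3 conditions: gccagatgaggatggcttcttctgagccac
Z00004168-1, higher in the Oct4 line in all 3 conditions: ctttaatgagttctttcctagttctcacag
Z00074617-1, higher in the Oct4 line in all 3 conditions: gagagggcaggagtatcaatttgttcaagt
Z00036800-1, higher in the Oct4 line in all 3 conditions: tgtgtttcactcccaaatcccagtttgttt
Z00031807-1, lower in the Oct4 line at 120 h: ctcttgcttctccAATAAActccttgcaga
Z00034035-1, lower in the Oct4 line at 120 h: tacacatattgtcttgtgttgctggtgcca
Z00024424-1, higher in the Oct4 line without LIF: aggaaagcaacatcgggaagcatcgagagc
Z00042832-1, higher in the Oct4 line without LIF: aaacgtaccatgaatctggtagaagagtcc

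The Cy3 signal stood well above background for 62.8% to 75.2% of probes per array. Precision is limited by having 2 arrays a group. A total of 31727 probes were tested in every comparison. A probe counted as higher or lower when its limma adjusted p was under 0.05 and its difference at least 2-fold. The SD of the log2 difference between the 2 arrays of a group was 0.12 for ZHBTc4 with LIF and 0.30 for Oct4 with LIF, and between 0.22 and 0.33 for the other 4 groups. With LIF, Oct4 replicate 2 lay 0.39 to 0.40 from the ZHBTc4 arrays and replicate 1 lay 0.44 from both. Oct4 replicate 2 with LIF lay as close to the Oct4 arrays at 48 h without LIF (0.39 and 0.38) as to ZHBTc4 with LIF. The same array lay 0.40 from ZHBTc4 replicate 2 at 48 h, which shared its slide, and 0.46 from ZHBTc4 replicate 1 at 48 h. At 120 h, both Oct4 arrays lay 0.45 to 0.46 from ZHBTc4 replicate 1, which shared their slide, and 0.55 to 0.56 from replicate 2, on another slide scanned in another session.

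**Figure D1:**
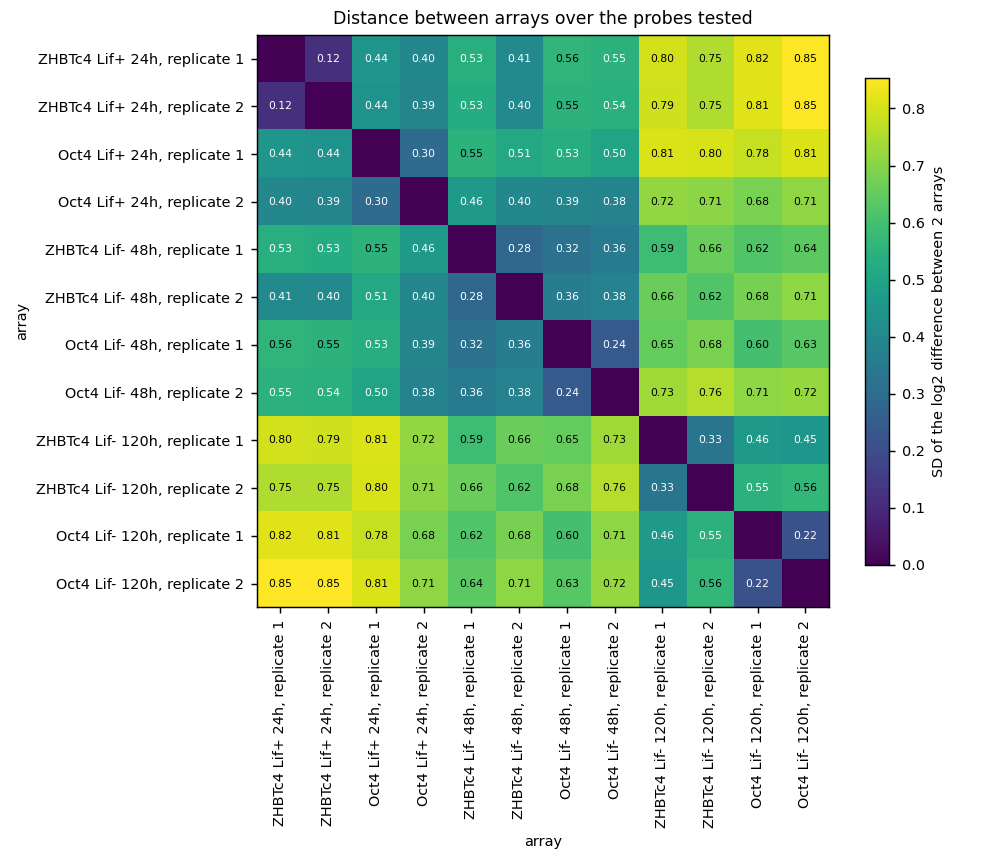
Distance between each pair of the 12 arrays, as the SD of the log2 difference over the 31727 probes tested, with both axes listing the arrays by line, condition and replicate. The ZHBTc4 pair with LIF is the closest at 0.12, and the arrays at 120 h without LIF stand apart from all others in both lines.

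With LIF, the Oct4 line differed from ZHBTc4 mainly in probes with a lower level. Of the 31727 probes, 688 passed the threshold (2.17%), of which 166 were higher in Oct4 (0.523%) and 522 lower (1.65%). The higher probes had a median difference of 1.18 on the log2 scale and the lower ones of -1.39. At least a 4-fold difference was seen in 8 higher and 100 lower probes, and at least 8-fold in 0 higher and 16 lower ones. The lean towards lower probes depended on how the spots were processed: 627 were higher and 753 lower with the scanner software's processed signals, and 475 and 566 with the deposited value table. Without ZHBTc4 replicate 1 the count fell to 447, of which 102 were higher and 345 lower. Both lines were scanned in the same session, but on separate slides, so slide and line cannot be told apart with LIF.

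Probe Z00004852-1 had the largest difference with LIF. It read 3.00 and 3.04 on the ZHBTc4 arrays and -3.21 and -1.93 on the Oct4 arrays. The Oct4 level was thus 48.0-fold lower (log2 difference -5.59, SE 0.44, adjusted p = 2.6e-05), and the 2 Oct4 arrays were themselves more than 2-fold apart. Probe Z00076164-1 read 5.79 and 5.71 in ZHBTc4 against 1.81 and 1.95 in Oct4. Its difference was -3.87 (SE 1.14, adjusted p = 0.048), and the call was lost in 11 alternative analyses. The ZHBTc4 arrays of this probe lay far apart at 48 h (3.80 and 5.29) and at 120 h (1.93 and 3.35). Among the higher probes, Z00036800-1 read -4.36 and -4.32 in ZHBTc4 and -2.11 and -1.59 in Oct4, a difference of 2.49 (SE 0.16, adjusted p = 9.6e-06). Z00074671-1 read -1.57 and -1.48 against 0.80 and 0.88, a difference of 2.37 (SE 0.39, adjusted p = 0.0026). The arrays of the 2 lines do not overlap for these 4 probes by the rule that chose them. They did not overlap for 686 of the 688 probes past the threshold and for 61.9% of all probes tested.

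Of the 688 probes, 624 were well above background on all 4 arrays. In 33 lower probes the Oct4 arrays were not well above background while both ZHBTc4 arrays were, so their folds are bounds set by the lowest signal the array could tell from background. These bounds ran from at least 1.74-fold to at least 6.01-fold lower, with a median of 2.32. The opposite case, a higher probe seen only in Oct4, was met in 4 probes. Over all probes tested, 324 were well above background in ZHBTc4 only and 461 in Oct4 only (1.45%).

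At 48 h without LIF the lines differed least by count. The threshold was passed by 238 probes (0.75%), 116 higher and 122 lower in the Oct4 line, with median differences of 1.22 and -1.31. At least 4-fold differences numbered 8 and 15. With the scanner software's processed signals 256 were higher and 177 lower, with the deposited value table the split was 206 to 140, and in a fit with the scan session as a block 166 to 115. Single arrays weighed on this count. It was 78 without Oct4 replicate 2, 120 without ZHBTc4 replicate 2, and 172 (53 higher, 119 lower) without ZHBTc4 replicate 1. The 2 ZHBTc4 arrays came from different scan sessions and both Oct4 arrays from the first. Within that session, with 1 ZHBTc4 array, 91 probes passed (53 higher, 38 lower). Slide and line cannot be told apart at 48 h, since no slide held both lines at that time. Of the 238 probes, 235 were well above background on all 4 arrays. Over all probes tested, 30 were well above background in ZHBTc4 only and 2347 in Oct4 only (7.40%) at 48 h. The share of probes well above background was 75.2% and 73.0% on the Oct4 arrays and 66.0% and 64.4% on the ZHBTc4 arrays.

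Z00004852-1 was again the most distant probe at 48 h. It read 2.00 and 2.63 in ZHBTc4 and -2.07 and -2.21 in Oct4, 22.0-fold lower (log2 difference -4.46, SE 0.44, adjusted p = 0.001). Z00074877-1 read 4.89 and 6.09 against 2.57 and 2.94, a difference of -2.73 (SE 0.42, adjusted p = 0.0061). With the processed signals of the scanner software its difference at 48 h was 0.11 (adjusted p = 0.91), and it was not called there. Z00036630-1 was the highest by difference, with -4.85 and -4.43 in ZHBTc4 and -2.45 and -1.79 in Oct4 (difference 2.52, SE 0.27, adjusted p = 0.0012). Z00042832-1 read -3.20 and -3.65 against -1.33 and -0.73 (difference 2.39, SE 0.28, adjusted p = 0.0016). The rule that chose these 4 probes also asked for no overlap between the lines. None of the 238 probes past the threshold had an overlap, and 47.1% of all probes tested had none.

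At 120 h without LIF the lines were furthest apart. The threshold was passed by 1250 probes (3.94%), 517 higher and 733 lower in the Oct4 line, with median differences of 1.28 and -1.45. At least a 4-fold difference was found in 54 higher and 169 lower probes, and at least 8-fold in 5 and 41. Leaving out 1 array at a time gave between 989 and 1710 probes. This is the one time at which a slide held both lines: within the first session, where both Oct4 arrays and ZHBTc4 replicate 1 shared a slide, 922 probes passed (416 higher, 506 lower). The count was 2727 with the scanner software's processed signals (1348 higher, 1379 lower).

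The lower probes with the largest differences at 120 h had not passed the threshold in the other conditions, and their ZHBTc4 level was highest at 120 h. Z00031807-1 read 2.48 and 2.84 in ZHBTc4 and -2.97 and -3.38 in Oct4, 57.1-fold lower (log2 difference -5.84, SE 0.49, adjusted p = 8.7e-06). In the other 2 conditions the same probe lay between -3.25 and -2.59 in ZHBTc4 and between -3.72 and -2.54 in Oct4, with differences of -0.41 and -0.06 (adjusted p of 0.65 and 0.97). Z00034035-1 read -0.80 and -1.07 in ZHBTc4 and -6.61 and -6.06 in Oct4, 42.2-fold lower (log2 difference -5.40, SE 0.23, adjusted p = 3.8e-08). With LIF it had read -6.27 and -6.26 in ZHBTc4 and -6.06 and -5.95 in Oct4. At 48 h it read -4.54 and -5.13 against -4.37 and -3.68, a difference of 0.81 in the other direction (adjusted p = 0.077), which was 1.16 (adjusted p = 0.042) without Oct4 replicate 1.

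The 2 higher probes had already passed the threshold at 48 h. Z00024424-1 read -1.15 and -1.44 in ZHBTc4 and 2.57 and 2.56 in Oct4, 14.5-fold higher (log2 difference 3.86, SE 0.22, adjusted p = 2.7e-07). Its difference was 0.81 with LIF, below the 2-fold threshold at an adjusted p of 0.03, and 1.79 at 48 h (adjusted p = 0.0016). Z00042832-1 read -3.42 and -3.87 in ZHBTc4 and 0.02 and 0.38 in Oct4, 14.3-fold higher (log2 difference 3.84, SE 0.28, adjusted p = 2.8e-06). With LIF it read -3.43 and -3.41 in ZHBTc4 and -3.10 and -2.36 in Oct4, a difference of 0.69 (adjusted p = 0.14). Absence of overlap between the lines was again part of the choice of these 4 probes. It held for all 1250 probes past the threshold and for 56.3% of all probes tested.

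At 120 h, 1176 of the 1250 probes were well above background on all 4 arrays. In 46 lower probes the signal was well above background only in ZHBTc4, with bounds from at least 2.05-fold to at least 13.6-fold lower and a median of 3.15. In 3 higher probes it was so only in Oct4. Over all probes tested, 305 were well above background in ZHBTc4 only and 1060 in Oct4 only (3.34%).

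**Figure D2:**
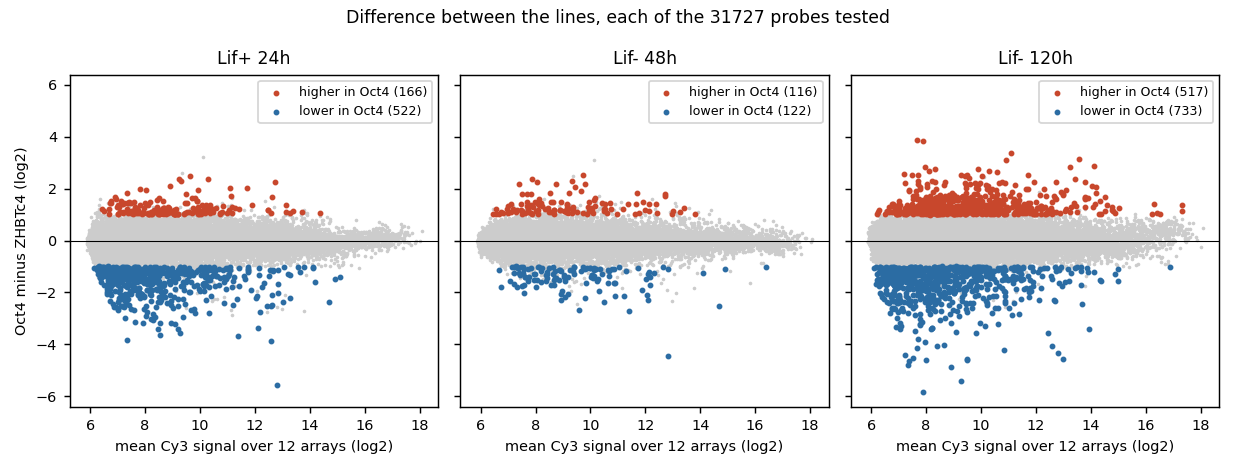
Oct4 minus ZHBTc4 on the log2 scale (vertical) against the mean Cy3 signal over the 12 arrays on the log2 scale (horizontal), one point per probe and one panel per condition. Probes past the threshold are red where higher in Oct4 (166, 116 and 517) and blue where lower (522, 122 and 733), and they occur over nearly the whole range of signal.

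**Figure D3:**
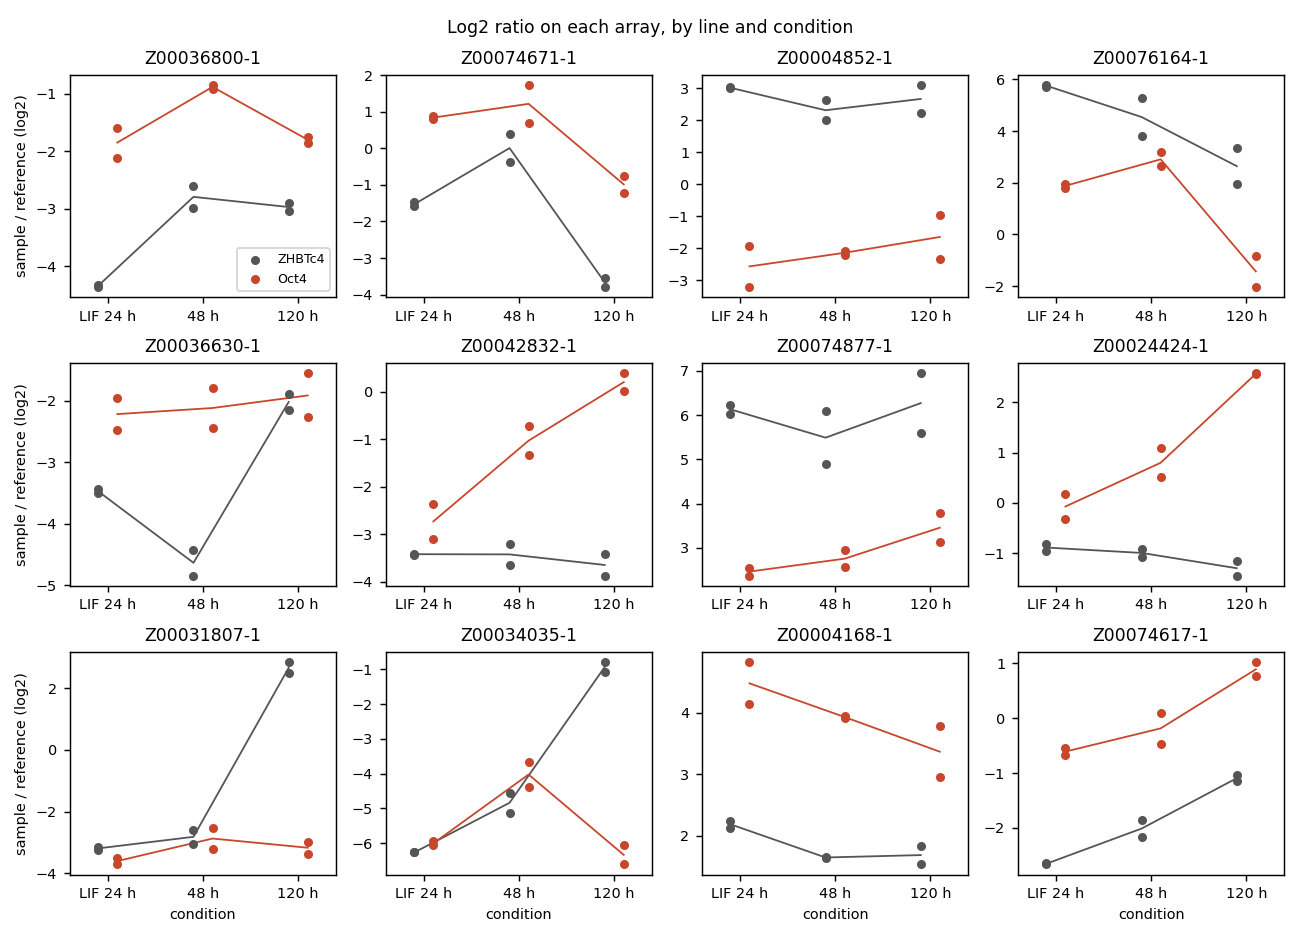
Log2 ratio of sample over reference (vertical) for 12 probes in the 3 conditions (horizontal), with one point per array, 2 per group, and lines through the group means, ZHBTc4 in grey and Oct4 in red. Z00004852-1 and Z00074877-1 stay apart in every condition, while Z00031807-1 and Z00034035-1 passed the threshold at 120 h only.

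Few probes passed the threshold in every condition. A probe that missed it in 1 condition was not thereby shown to be alike in the lines there, and the comparison at 48 h had the fewest calls. Of 1862 probes past the threshold in at least 1 condition, 1602 passed in 1 condition only, 206 in 2 and 54 in all 3, the last all in one direction, 15 higher and 39 lower in Oct4. The count of 54 was between 17 and 54 when 1 array was left out. It was 33 and 17 without Oct4 replicates 1 and 2 at 48 h, 18 without ZHBTc4 replicate 2 at 48 h, and 34 without ZHBTc4 replicate 1 with LIF. The comparison with LIF shared 99 probes of the same direction with that at 48 h (14.4% of its 688 and 41.6% of the 238), and 169 with that at 120 h (24.6% of 688 and 13.5% of 1250). The comparisons at 48 h and 120 h shared 84 (35.3% of 238 and 6.72% of 1250). Opposite directions were found in 1, 10 and 5 probes of these pairs. Over all probes tested, 2.17% passed the threshold with LIF, 0.75% at 48 h and 3.94% at 120 h. The Pearson correlation of the line difference over all probes was 0.46, 0.32 and 0.34 for these pairs in the same order. The 3 comparisons have no array in common.

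Z00004852-1 was among the 39 lower probes, with 2.22 and 3.12 in ZHBTc4 and -0.96 and -2.33 in Oct4 at 120 h (difference -4.32, SE 0.44, adjusted p = 4.1e-05). So was Z00074877-1, which read 6.24 and 6.02 against 2.37 and 2.56 with LIF (difference -3.67) and 5.60 and 6.94 against 3.78 and 3.13 at 120 h (difference -2.81). With the processed signals of the scanner software those differences were -1.21 (adjusted p = 0.083) and -0.06 (adjusted p = 0.94). Among the 15 higher probes, Z00004168-1 read 2.25 and 2.13 in ZHBTc4 and 4.13 and 4.82 in Oct4 with LIF (difference 2.29), 1.64 and 1.66 against 3.95 and 3.91 at 48 h (2.28), and 1.84 and 1.54 against 3.78 and 2.95 at 120 h (1.68). Its adjusted p was 0.0012, 0.0045 and 0.0037 in that order. Z00074617-1 read -2.64 and -2.66 against -0.55 and -0.67 with LIF (difference 2.04), -1.86 and -2.16 against -0.47 and 0.10 at 48 h (1.83), and -1.04 and -1.14 against 1.02 and 0.76 at 120 h (1.98), with adjusted p of 0.0011, 0.0078 and 0.00056. The level of this probe was higher at 120 h than with LIF on the arrays of both lines, and the gap between the lines was about the same.

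Averaged over the 3 conditions, with 6 arrays a line, 433 probes passed the threshold (1.36%), 113 higher (0.356%) and 320 lower (1.01%) in Oct4. With the scanner software's processed signals, 696 were higher and 837 lower. In the deposited value table the split was 474 and 604.

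**Figure D4:**
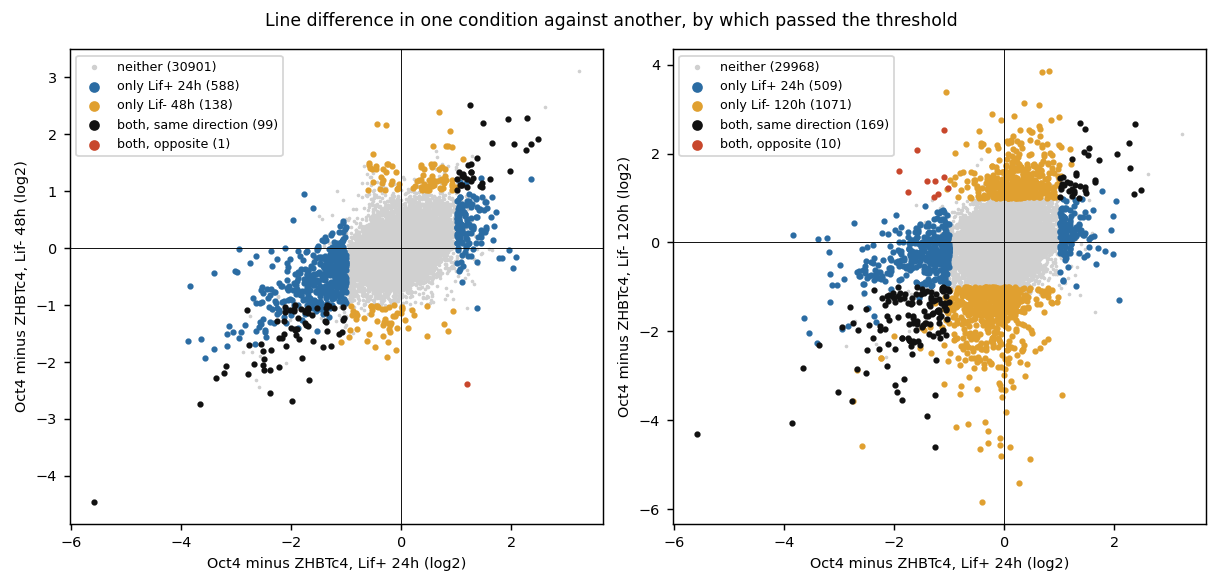
Oct4 minus ZHBTc4 on the log2 scale with LIF (horizontal) against the same difference at 48 h (left panel) and at 120 h (right panel) without LIF, one point per probe, coloured by the conditions in which it passed the threshold. The black points, past the threshold in both with the same direction, number 99 and 169, and the red ones, with opposite directions, 1 and 10.

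The line difference itself was compared between conditions with a limma test of its change. The Oct4 cultures with LIF differ from those without it in labelled modification, drugs and scan session as well as in LIF, so in any change from the LIF state these cannot be told apart. Between 120 h and the LIF state 1226 probes (3.86%) had a different line difference, 637 of them more positive (2.01%) and 589 more negative (1.86%) at 120 h. Between 120 h and 48 h the number was 882 (2.78%), 409 more positive (1.29%) and 473 more negative (1.49%), and within the first scan session it was 369. Between 48 h and the LIF state it was 167 (0.526%), 113 more positive (0.356%) and 54 more negative (0.17%). The last count was 583 (420 more positive, 163 more negative) with the scan session as a block, 47 with slide as a random block and 20 with only the arrays of the comparison in the fit. It ranged from 31 to 451 when 1 array was left out: 31 without ZHBTc4 replicate 1 and 276 without replicate 2 at 48 h, 40 and 41 without ZHBTc4 replicates 1 and 2 with LIF, 39 and 451 without Oct4 replicates 1 and 2 with LIF, and 108 and 54 without Oct4 replicates 1 and 2 at 48 h.

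The 733 probes lower in Oct4 at 120 h had, by their median, a level at that time above the LIF state in ZHBTc4 and slightly below the ZHBTc4 LIF state in Oct4. Their median level, relative to the mean of ZHBTc4 with LIF, was 0.92 and 1.25 on the 2 ZHBTc4 arrays at 120 h and -0.41 and -0.39 on the 2 Oct4 arrays. At 48 h it was -0.16 and -0.03 in ZHBTc4 and -0.30 and -0.33 in Oct4. From the LIF state to 120 h, 388 of the 733 had a group mean at least 2-fold higher in ZHBTc4, against 78 in Oct4, and 312 were at least 2-fold higher in ZHBTc4 while staying within 2-fold in Oct4. At least 2-fold lower at 120 h than with LIF were 87 in ZHBTc4 and 140 in Oct4. Over all probes tested, 2409 and 2220 were at least 2-fold higher at 120 h in ZHBTc4 and Oct4, and 1076 were so in ZHBTc4 while within 2-fold in Oct4. The set was chosen on the arrays at 120 h, so these courses describe it and were not tested. In the conditions not used for the choice, its median line difference was -0.35 with LIF and -0.29 at 48 h, against -0.02 and 0.0045 over all probes.

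The 517 probes higher in Oct4 at 120 h stood, by their median, above the ZHBTc4 LIF state in Oct4 and near it in ZHBTc4. Their median level was 1.28 and 1.31 on the Oct4 arrays at 120 h and 0.01 and -0.12 on the ZHBTc4 arrays. At 48 h it was 0.47 and 0.36 in Oct4 and 0.23 and 0.14 in ZHBTc4. The group mean was at least 2-fold higher at 120 h than with LIF for 265 of them in Oct4 and for 76 in ZHBTc4, and at least 2-fold lower for 18 and 108. Their median line difference was 0.26 with LIF and 0.28 at 48 h. These values too describe a set chosen on the arrays at 120 h.

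The 522 probes lower in Oct4 with LIF had, by their median, a lower level in ZHBTc4 without LIF than with it, and nearly the same level in Oct4 in all 3 conditions. Relative to the mean of ZHBTc4 with LIF, their median level on the Oct4 arrays was -1.45 and -1.34 with LIF. It was -1.49 and -1.46 in that line at 48 h, then -1.50 and -1.55 at 120 h. In ZHBTc4 it was -1.12 and -0.65 at 48 h and -1.24 and -1.01 at 120 h. The group mean was at least 2-fold lower at 120 h than with LIF for 281 of the 522 in ZHBTc4 and for 91 in Oct4, where 98 were at least 2-fold higher. Over all probes tested, 2119 and 1813 were at least 2-fold lower at 120 h in ZHBTc4 and Oct4. The ZHBTc4 arrays with LIF both chose this set and served as its baseline, so a fall from them is partly given by the choice.

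In the comparisons not used for the choice, most of the 522 probes had a line difference below 0, and most did not pass the threshold. Their median line difference was -0.58 at 48 h, with 489 of 522 below 0, and -0.46 at 120 h, with 423 below 0. Over all probes tested, the medians were 0.0045 and 0.018, with 49.1% and 47.0% of probes below 0. Of the 522 probes, 67 passed the threshold as lower and 0 as higher at 48 h, where 0.385% of all probes were lower. At 120 h, 132 of them passed as lower and 10 as higher, where 2.31% of all probes were lower. The 166 probes higher with LIF had median line differences of 0.50 at 48 h and 0.38 at 120 h. Of them 32 were higher and 1 lower at 48 h, where 0.366% of all probes were higher, and 37 were higher at 120 h, where 1.63% were.

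**Figure D5:**
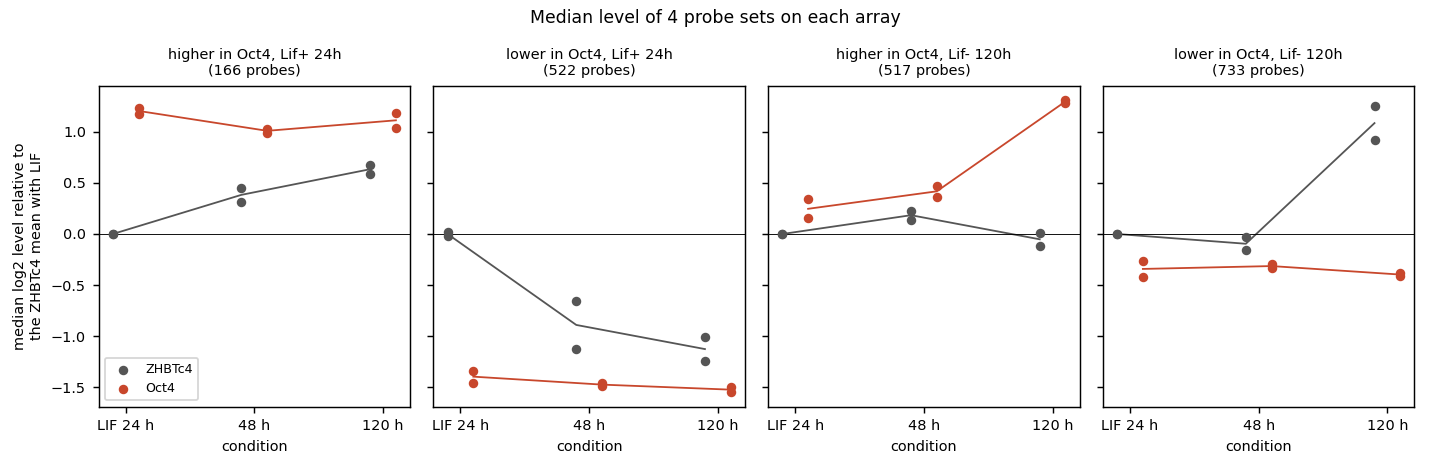
Median level of 4 probe sets on each array, as a log2 difference from the mean of ZHBTc4 with LIF (vertical), in the 3 conditions (horizontal), ZHBTc4 in grey and Oct4 in red, with one point per array and lines through the group means. The set lower in Oct4 with LIF stays between -1.34 and -1.55 on all Oct4 arrays, while the set lower at 120 h reaches 0.92 and 1.25 in ZHBTc4 only at that time.

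Probe sequence was set beside these sets as a feature that the choice did not use. The letters AATAAA on the probe's own strand were found in 7.34% of all probes tested. They were found in 13.3% of the probes higher and 12.1% of those lower in Oct4 with LIF, in 9.48% and 13.1% at 48 h, and in 9.09% and 12.8% at 120 h. The median GC content was 43.3% or 45.0% in each of these 6 sets and 45.0% over all probes. The sets also had higher signals than the probes tested as a whole, with median Cy3 levels from 8.01 to 9.53 against 7.91 on the log2 scale, and the part of signal in the motif shares was not tested. Probes linked by a shared run of 25 bases, directly or through other probes, served as a check within an array. Among 1321 pairs of probes linked in this way, at least 1 probe passed the threshold in 92 pairs with LIF, 29 at 48 h and 91 at 120 h. Both passed in 63, 11 and 65 of these, with the same direction in each. In the rest 1 probe passed, and its partner had the same sign in 24, 18 and 25 pairs and the other sign in 5, 0 and 1. The Cy5 channel, which carried the same reference RNA on every array, had 22, 10 and 78 probes past the threshold under the same test (0.0693%, 0.0315% and 0.246%), of which 10, 6 and 37 were also past it in the ratios.

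A small number of probes could be placed. Probe sequences were matched to windows from 250 bases before to 50 bases after the transcription starts of mouse genes in RefSeq GRCm38.p6, over at least 30 bases. The rest of the genome was not searched, so a single place below means a single place within these windows. Of the 42006 probes 431 matched, 405 at a single place, and 294 of these were tested. The threshold was passed by 10 of the 294 (3.40%) in at least 1 comparison, against 5.87% of all probes tested. By comparison, 3 passed with LIF (1.02%, against 2.17% of all), 4 at 48 h (1.36%, against 0.75%) and 5 at 120 h (1.70%, against 3.94%). A place near a start does not settle which transcript a probe reads, and whether it lies in an exon is not given in the table used here.

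Of these 10 probes, 1 was lower in Oct4 in all 3 conditions. Z00038074-1 matched over 54 bases at chr9:50505002-50505055 (GRCm38.p6, plus strand), within the span and on the strand of Plet1, a gene for a surface protein named for its expression in placenta. The matched place also lies upstream of Plet1os on the opposite strand. The first 30 bases are shown because the probe passed the threshold in every condition and matched a single place in the windows searched.
Z00038074-1: ctactagcagatttccactgtgcccagacc
With LIF it read 4.85 and 4.74 in ZHBTc4 and 2.96 and 3.42 in Oct4 (difference -1.60, SE 0.33, adjusted p = 0.0092). At 48 h it read 3.32 and 3.80 against 2.00 and 1.86 (difference -1.63, adjusted p = 0.023), and at 120 h 4.60 and 5.19 against 3.75 and 3.75 (difference -1.15, adjusted p = 0.031). The arrays of the lines did not overlap in any condition. The calls lie near the threshold. With the scanner software's processed signals the differences were -1.44, -1.81 and -0.84, with adjusted p of 0.067, 0.055 and 0.21. At 120 h the difference was -0.85 (adjusted p = 0.29) within the first scan session.

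Z00070363-1 matched over all 60 bases at chr11:96353540-96353599 (plus strand), in the span of Hoxb2, a homeobox transcription factor of anterior-posterior patterning, and upstream of Hoxb3os on the opposite strand. It is shown as the placed probe with the smallest adjusted p.
Z00070363-1: ggttctctcgatagccccgtgcccttttcc
It read 0.44 and 0.67 in ZHBTc4 and -0.66 and -0.81 in Oct4 at 120 h (difference -1.29, SE 0.10, adjusted p = 6.1e-06). With LIF it read -1.18 and -1.05 against -1.24 and -1.23, and at 48 h -0.51 and -0.52 against -0.33 and -0.41, with differences of -0.12 and 0.14 (adjusted p of 0.51 and 0.53). The levels of both lines were thus close together until 48 h and apart at 120 h. Within the first scan session the difference at 120 h was -1.18 (adjusted p = 0.0017).

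The other 8 placed probes passed the threshold in 1 comparison each. With LIF, Z00077387-1, over the first bases of Gstp1, which codes for a glutathione transferase, had a difference of -1.02 (adjusted p = 0.045), and Z00060294-1, upstream of Gm21936, of -2.95 (adjusted p = 0.027). At 48 h, Z00064793-1, at the start of Tpt1, which codes for the translationally controlled tumour protein, was higher by 1.04 (adjusted p = 0.026). Z00067284-1 and Z00058641-1, on the strands opposite to the starts of Slc35c1, a sugar nucleotide transporter, and Fgd4, an exchange factor for Cdc42, were higher by 1.47 and 1.15 (adjusted p of 0.0012 and 0.018). At 120 h, Z00053851-1, opposite to and upstream of the phosphatase gene Dusp12, was higher by 1.21 (adjusted p = 5.3e-05). Z00075577-1, in the span of Homer2, a scaffold protein gene, was higher by 1.22 (adjusted p = 0.00094). Z00031680-1, on the strand opposite to the start of Gm50270 and also in the span of B230217O12Rik, was higher by 1.13 (adjusted p = 0.0028). The differences with LIF, at 48 h for Z00064793-1 and at 48 h for Z00058641-1 fell below the threshold in 6 to 10 of the alternative analyses.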

How the data were processed

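RNA of 18 cultures was measured on 2-colour arrays of 42006 probes, sample in Cy3 and reference in Cy5. Per the file headers, the authors' scanner output came from Agilent Feature Extraction 9.5.1.1 and holds intensity values of each spot as mean signals with background medians, processed signals, and the log10 of Cy5 divided by Cy3. The direction of sample over reference used here follows the dyes in the labels. The deposited value table holds log10 values of 25030 probes that match the ratio of the processed signals within 0.001 once each probe is centred. The constant added to each probe is unknown. No genome build is given in the sources used here.

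Background was corrected with normexp (offset 50) and ratios normalised by loess within arrays in limma 3.58.1 (R 4.3.3), with control spots at weight 0 and flagged spots left out. The offset shrinks the log2 ratios of dim probes, so their fold changes are understated. A probe was kept where 1 group or more had a Cy3 signal well above background on each of its 2 arrays. A model with a mean for each of 9 groups was fitted to the 18 arrays (lmFit, eBayes, 9 residual and 3.69 prior degrees of freedom), and p-values were adjusted by Benjamini-Hochberg over the 31727 probes. The pipeline was tested on simulated data. A lone array left after omitting its partner was taken to vary like the other groups.

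The arrays lay on 5 slides scanned in 2 sessions of 12 and 6 arrays. The first session held the Oct4 arrays without LIF and ZHBTc4 replicate 1 at 48 h and 120 h, the second the rest of both lines. Alternatives covered the signals used, normalisation, filter, arrays in the fit, session, slide, replicate number, threshold and single arrays left out. Single probes were chosen by rule: in each comparison the 2 largest positive and 2 largest negative differences past the threshold, without overlap between arrays and well above background on all 4, and likewise for probes past it in all 3 comparisons. All placed probes past the threshold are also given. Of the gene lists drawn up for pluripotency, LIF targets and lineages, 1 gene, Acta2, had a placed probe, and it passed no threshold. The comparison, lists and rules were chosen with earlier results of these data known.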

Additional observations from a re-analysis of the deposited data

Results flagged for a closer look

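The test of a change in the line difference between conditions, in which Oct4 cultures with and without LIF also differ in labels, drugs and scan session, passed the threshold as counted above: 1226 probes between 120 h and the LIF state, 882 between 120 h and 48 h, and 167 between 48 h and the LIF state. Among the probes chosen for the text, the change from the LIF state to 120 h in Oct4 minus ZHBTc4 (log2) was -5.66 for Z00034035-1, -5.42 for Z00031807-1, 3.15 for Z00042832-1, 3.04 for Z00024424-1 and -1.32 for Z00036800-1. The change from 48 h to 120 h was -6.21 for Z00034035-1, -5.78 for Z00031807-1, -2.41 for Z00036630-1, 2.07 for Z00024424-1 and 1.45 for Z00042832-1. Most of these probes were chosen for a large difference at 120 h or 48 h, so the sizes are partly given by the choice. For Z00036630-1 the change came with the ZHBTc4 level, which read -4.85 and -4.43 at 48 h and -2.16 and -1.88 at 120 h, while Oct4 read -2.45 and -1.79, then -2.27 and -1.56.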

How the results depend on the processing

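Counts of probes past the threshold were compared with those reported above, and changes beyond 1.5 times are given here. With the processed signals of the scanner software, the counts were 1380 with LIF, 433 at 48 h, 2727 at 120 h, 1533 for the mean of the conditions and 90 in all 3 conditions. With the deposited value table they were 1041 with LIF, 1925 at 120 h, 1078 for the mean and 86 for the change from the LIF state to 48 h. Of the reported probes still tested, 72.8%, 67.7% and 85.6% kept their call and direction with the processed signals, with LIF, at 48 h and at 120 h. Scale normalisation gave 2155 at 120 h, and 1989, 43 and 1644 for the changes from the LIF state to 120 h, from the LIF state to 48 h, and from 48 h to 120 h. The Cy3 channel alone gave 85 in all 3 conditions. With only the arrays of the comparison in the fit, 86 passed at 48 h and 20 for the change from the LIF state to 48 h. The scan session as a block gave 583 for that change and 34 in all 3 conditions, and slide as a random block 47 for that change and 155 at 48 h. Within the first session, 91 passed at 48 h and 369 for the change from 48 h to 120 h. Without the fold threshold, 3381, 1086 and 5640 passed with LIF, at 48 h and at 120 h, 6723 for the mean, 3132, 359 and 2088 for the changes in the order above, and 192 in all 3 conditions. A test against a 1.2-fold difference (limma treat) gave 110 at 48 h, 1930 at 120 h, 1104 for the mean, 37 for the change from the LIF state to 48 h and 26 in all 3 conditions. Under that test, 75.4%, 37.4% and 88.8% of the reported probes kept their call and direction with LIF, at 48 h and at 120 h. Leaving out 1 array gave 447 to 872 with LIF, 78 to 217 at 48 h, 989 to 1710 at 120 h, 375 to 508 for the mean, 871 to 1475, 31 to 451 and 592 to 1268 for the changes, and 17 to 54 in all 3 conditions. Same-numbered arrays of the lines did not deviate together (correlations -0.0071, 0.059 and -0.19), so the numbers were not taken to pair the lines. Over all pairs of the 6 groups the correlations ran from -0.23 to 0.70, and in ZHBTc4 at 48 h and 120 h the number coincides with slide and session. A replicate block gave 705, 258 and 1257 probes in the 3 comparisons, 436 for the mean, 1267, 201 and 926 for the changes and 57 in all 3 conditions. At 120 h, a block with the numbers crossed, chosen after seeing the data, gave 1254. Of the values of single probes under the alternatives, 1220 kept their side of the threshold, 91 lost the call, 6 gained it and 1 reversed. The 1220 include values that were not called in either analysis, so they are not a count of calls kept. Direction was compared only where a call was made in either analysis. The reversed value was that of Z00074877-1 at 48 h with the processed signals (0.11). The cause of these changes was not tested. Signals near background limit the folds of dim probes.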
